A study of Homo sapiens with 6 samples.

Results

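The genes of phase II conjugation were examined in HepG2 cells, a line grown from a human liver cancer, after knockdown of PAIP1, a protein that binds the poly(A) binding protein and acts in translation and mRNA decay. They were chosen by name, as the protein-coding genes of the count table whose symbols begin with UGT (families 1 to 8), SULT or GST (classes A, K, M, O, P, T and Z), together with MGST1, MGST2 and MGST3. This gave 47 genes of the 30987 in the table, of which 20 were UGT, 11 were SULT and 16 were GST or MGST genes. Another 10 rows with such names were annotated as a different gene type and were left out. The siPAIP1 group was 3 libraries of HepG2 cells transfected with siRNA3 against PAIP1, and the Ctrl group was 3 libraries of the same line transfected with a non-targeting control siRNA. All cells were harvested 48 h after transfection, and polyadenylated RNA was sequenced. The study calls the libraries of a group biological replicates, but all come from 1 cell line and 1 siRNA per group.

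Phase II enzymes attach a polar group to drugs, hormones, bile acids and reactive compounds, which makes them easier to excrete. UDP-glucuronosyltransferases (UGT) transfer glucuronic acid from UDP-glucuronate and sit in the endoplasmic reticulum. Sulfotransferases (SULT) are cytosolic and transfer sulfonate from the cosubstrate PAPS, while glutathione S-transferases (GST, and the membrane-bound MGST) add glutathione to electrophiles or reduce peroxides with it. The liver is a main site of all 3 reactions, and the nuclear receptors, NRF2 and the aryl hydrocarbon receptor are known regulators of many of these genes.

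PAIP1 itself had 27.8, 21.8 and 20.1 CPM (counts relative to library size, scaled with TMM factors) in the siPAIP1 libraries, against 94.6, 81.5 and 90.0 CPM in the Ctrl libraries, a log2 fold change of -1.93 ± 0.13 (edgeR's quasi-likelihood test, Benjamini-Hochberg adjusted p = 0.000918). Errors of log2 fold changes are standard errors (SE) throughout. Total counts ranged from 29313211 to 34157368 in siPAIP1 and from 31045623 to 34659866 in Ctrl libraries. The third siPAIP1 library stood apart. In it, 357 of 9247 genes with a mean of at least 10 CPM were more than 2-fold above the mean of the other libraries of its group. In any other library at most 7 were, and none of the 357 was a UGT, SULT or GST gene. The hepatocyte markers ALB, AFP, APOA1, APOB, TTR, TF, SERPINA1 and HNF4A were all present. Their summed level was 6499 to 8382 CPM in siPAIP1 and 10160 to 10740 CPM in Ctrl libraries. By the same test 5 of the 8 were lower in siPAIP1, against 6.2% of all tested genes. KRT7, SOX9 and EPCAM, markers of bile duct cells that this line also expresses, summed to 281.7 to 310.3 CPM in siPAIP1 and 344.2 to 348.6 CPM in Ctrl, and of the 3 KRT7 was lower in siPAIP1 (log2 fold change -1.24, edgeR adjusted p = 0.0126). Of 4 leukocyte markers in the table, PTPRC had 1 fragment in total over the 6 libraries, and the sums were 376.0 to 506.5 CPM in siPAIP1 and 513.8 to 567.3 CPM in Ctrl, nearly all of it LYZ. The 3 endothelial markers in the table summed to at most 2.62 CPM in siPAIP1 and 2.46 CPM in Ctrl, and 4 fibroblast markers to at most 1.36 CPM in siPAIP1 and 0.719 CPM in Ctrl. The part of these shifts in the results below was not tested, and in bulk RNA fewer cells with a transcript and less of it per cell cannot be told apart.

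Levels were compared between genes by FPKM, in which fragments are divided by exon length and by the mapped fragments of the library. GSTO1, an omega-class enzyme with thioltransferase and dehydroascorbate reductase activity, was the most abundant of the 47, with a mean of 268.9 ± 39.6 FPKM in siPAIP1 and 301.0 ± 37.4 FPKM in Ctrl (SD, n = 3 each). MGST2 followed with 104.6 ± 14.4 FPKM in siPAIP1 and 136.2 ± 12.9 FPKM in Ctrl, and MGST1 with 92.6 ± 15.5 FPKM in siPAIP1 and 124 ± 14.0 FPKM in Ctrl. MGST2 was above MGST1 in FPKM in each library. In CPM, which is not divided by exon length, MGST1 was above MGST2 in each library, so their order depends on the length used. Mean CPM was 222.3 for MGST1 and 152.1 for MGST2 in siPAIP1, against 303.7 and 202.5 in Ctrl. The next in order of mean FPKM were SULT1A1, GSTK1, SULT2A1, UGT1A8, MGST3, SULT1A2, UGT2B7, GSTZ1 and GSTA4, the last of which had 14.7 FPKM on average in siPAIP1 and 13.4 ± 0.512 FPKM in Ctrl.

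At the other end, 15 of the 47 genes had too few counts to be tested. GSTP1, the pi-class enzyme that many tumours express strongly, had 2, 2 and 4 counts in siPAIP1 libraries, against 10, 6 and 5 counts in Ctrl libraries. GSTM1 had 1 to 4 counts in siPAIP1 and 3 in each Ctrl library. UGT2B15 and UGT2B17, which glucuronidate androgens, had 1 to 8 and 0 to 1 counts in siPAIP1, against 6 to 11 and 0 to 3 counts in Ctrl. UGT1A4, UGT1A5, UGT1A7, UGT1A9, UGT2A1, UGT3A1, SULT4A1 and SULT6B1 stayed at 6 counts or fewer in every library, and UGT2B28 at 10 or fewer. SULT1A4, whose sequence is nearly that of its copy SULT1A3, stayed at 5 or fewer. Only reads that mapped to 1 place were kept, and 99.8% of its read-length windows recur in another gene. Its low counts therefore do not show low expression. UGT8, which makes galactosylceramide rather than drug conjugates, had 1, 3 and 27 counts in siPAIP1 libraries, against 4, 16 and 2 counts in Ctrl libraries, so that 1 library of each group was high.

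**Figure D1:**
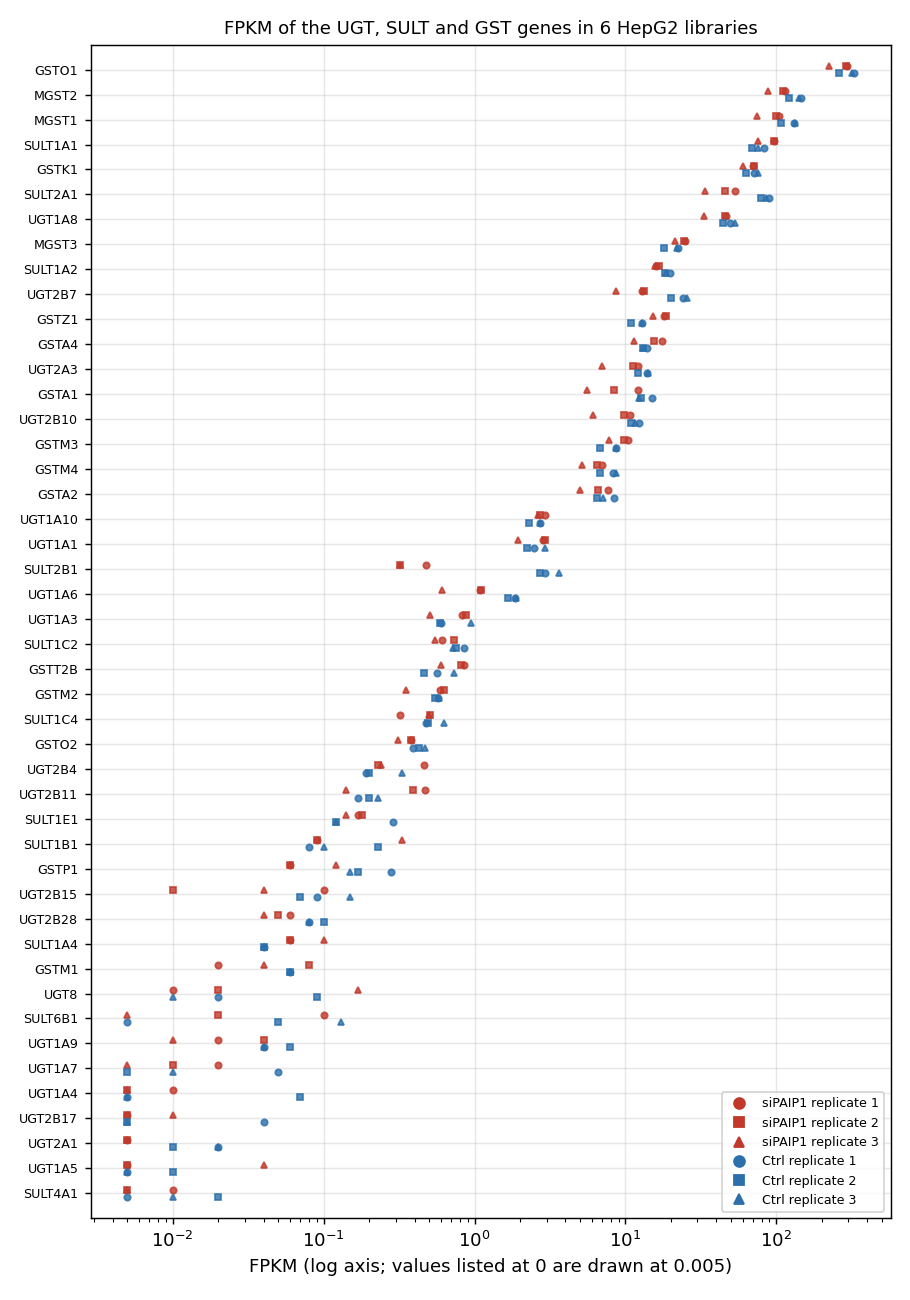
FPKM on a log axis of the 46 UGT, SULT and GST genes with an FPKM value, 1 row per gene in order of mean FPKM; red points are the siPAIP1 libraries, drawn above the blue points of the Ctrl libraries, and values listed at 0 are drawn at 0.005. GSTO1 lies highest, at 223 to 295 FPKM in siPAIP1 and 258 to 328 FPKM in Ctrl, and the 2 groups of points separate most clearly for SULT2B1, at 0.32 to 0.48 FPKM in siPAIP1 and 2.72 to 3.60 FPKM in Ctrl.

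The comparison of siPAIP1 with Ctrl asked which conjugation genes changed with PAIP1 knockdown. Changes were tested on the counts with edgeR's quasi-likelihood test over all 15528 genes that passed its filter on low counts, with Benjamini-Hochberg adjustment over all of them. Of the 47 genes, 32 were tested, and 1 rose and 6 fell at an adjusted p under 0.05. GSTZ1 rose, and SULT2B1, SULT2A1, UGT2B7, UGT1A6, MGST1 and MGST2 fell. Over all tested genes 5.68% rose and 6.2% fell, so 1 of 32 that rose was no larger than the general share, and 6 of 32 that fell was above it. The difference between these shares was not tested. With the study's threshold of a fold change of at least 2 as well, SULT2B1 and UGT2B7 fell and none rose. By this rule 171 of all tested genes fell (1.1%) and 173 rose (1.11%). These numbers come from the test used here, and the study's own edgeR analysis reported different ones. DESeq2 gave 1 higher and 8 lower, against 5.95% and 6.75% of the genes it tested, and added GSTA1 and GSTM4. Without adjustment, 1 of the 32 was higher and 11 were lower at p under 0.05, against 14.8% and 13.8% of all tested genes.

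Most of the tested genes had lower values in siPAIP1. Of the 32 tested genes, 21 had a log2 fold change below 0, against 45.1% of all tested genes, and the median was -0.213, against 0.0342 over all tested genes. All 3 siPAIP1 libraries lay below all 3 Ctrl libraries for 14 of the 32, where 17.6% of all tested genes did so. All 3 lay above for GSTZ1 alone, where 19.0% of all tested genes did so, and the groups overlapped for the other 17. The third siPAIP1 library was the lowest of its group for 26 of the 32 genes (81.2%, against 44.1% of all tested genes), and the second Ctrl library was the lowest of its group for 22 (68.8%, against 36.3%).

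These counts depended on single libraries. Without the third siPAIP1 library, 4 of 32 rose and 11 fell, against 11.8% and 12.4% of all genes tested in that fit, and all 7 calls made with 6 libraries were among them. SULT1A1, GSTM3 and UGT2B11 were then also higher, and GSTA1, GSTM4, SULT1A2, UGT2A3 and UGT2B10 also lower. Without any 1 of the other 5 libraries, none was called higher and 3 to 5 were called lower, while over all genes tested in those fits 1.17% to 3.57% were called higher and 1.68% to 4.05% lower. SULT2B1, SULT2A1 and UGT2B7 fell in each of these 6 fits.

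**Figure D2:**
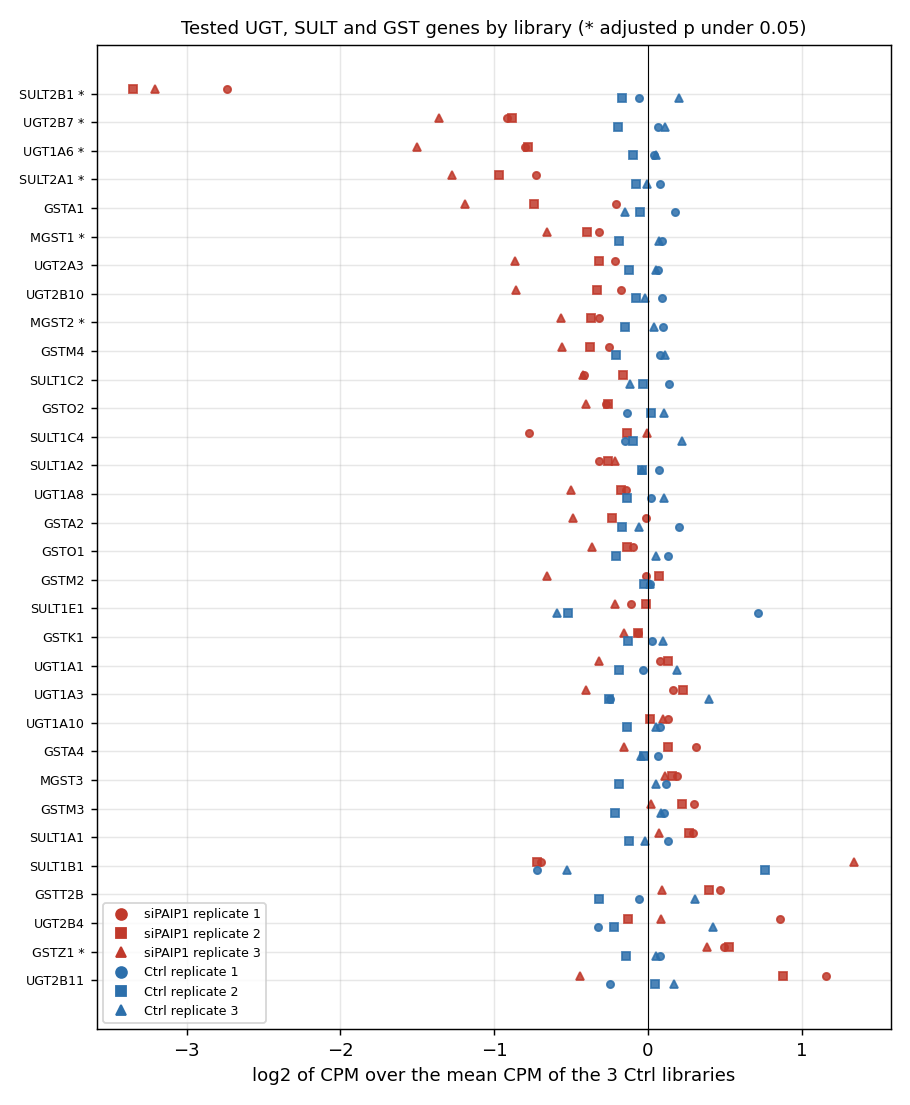
For each of the 32 tested genes, the log2 ratio of CPM in every library to the mean CPM of the 3 Ctrl libraries, ordered from the lowest to the highest fitted fold change (top to bottom); red points are siPAIP1 and blue points Ctrl libraries, with a shape per replicate, and an asterisk marks an adjusted p under 0.05. SULT2B1 lies far to the left of the other genes, and the red triangles of the third siPAIP1 library are the lowest red points in 26 of 32 rows.

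The promoter sequences of the 3 genes whose fall held in every fit, of UGT1A6 and of GSTZ1, the sole gene that rose, are given here as 250 bases before a transcript start (RefSeq, GRCh38.p14, read 5′ to 3′ on the gene's strand). Capitals mark matches, on either strand, to 6 motifs: TGACNNNGC (the antioxidant response element bound by NRF2), GCGTG (core of the aryl hydrocarbon receptor element), GTTAAT (half-site of the hepatocyte factor HNF1), AGGTCA (nuclear receptor half-site), CAAAGTCCA (HNF4) and TGANTCA (AP-1, which the first motif can overlap).
SULT2B1 promoter (chr19:48551922-48552171, plus strand): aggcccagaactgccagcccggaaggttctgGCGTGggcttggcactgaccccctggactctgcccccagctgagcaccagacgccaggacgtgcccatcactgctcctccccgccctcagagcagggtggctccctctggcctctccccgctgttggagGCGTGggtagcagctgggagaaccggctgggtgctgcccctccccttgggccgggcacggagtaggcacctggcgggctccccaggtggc
SULT2A1 promoter (chr19:47886316-47886565, minus strand): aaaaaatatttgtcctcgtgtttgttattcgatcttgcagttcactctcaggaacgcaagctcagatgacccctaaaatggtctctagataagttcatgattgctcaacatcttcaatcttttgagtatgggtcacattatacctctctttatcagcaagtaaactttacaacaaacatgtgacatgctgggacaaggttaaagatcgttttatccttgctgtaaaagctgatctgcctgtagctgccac
UGT2B7 promoter (chr4:69096224-69096473, plus strand): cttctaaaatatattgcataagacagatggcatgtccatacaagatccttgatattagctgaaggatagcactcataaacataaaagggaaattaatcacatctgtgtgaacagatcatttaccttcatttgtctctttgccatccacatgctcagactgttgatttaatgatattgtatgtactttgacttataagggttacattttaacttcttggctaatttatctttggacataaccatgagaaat
UGT1A6 promoter, downstream of its 2 RefSeq starts (chr2:233692640-233692889, plus strand): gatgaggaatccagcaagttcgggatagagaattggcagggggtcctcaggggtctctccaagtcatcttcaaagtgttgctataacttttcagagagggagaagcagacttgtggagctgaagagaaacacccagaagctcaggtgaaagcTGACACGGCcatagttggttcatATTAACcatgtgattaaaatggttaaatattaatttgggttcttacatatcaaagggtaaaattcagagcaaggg
GSTZ1 promoter (chr14:77320786-77321035, plus strand): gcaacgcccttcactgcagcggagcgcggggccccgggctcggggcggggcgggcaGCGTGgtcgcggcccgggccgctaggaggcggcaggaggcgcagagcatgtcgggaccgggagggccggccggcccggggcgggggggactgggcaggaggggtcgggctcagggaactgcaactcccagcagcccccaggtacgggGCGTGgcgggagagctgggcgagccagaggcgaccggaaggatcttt
In these windows SULT2B1 and GSTZ1 each held the aryl hydrocarbon core at 2 places, from positions -219 and -90 in SULT2B1 and from -194 and -47 in GSTZ1, counted from the start. UGT1A6 held the NRF2 element from -98 and an HNF1 half-site, read as its reverse complement, from -75, and the window of its other RefSeq start (chr2:233691452-233691701, not printed) held an aryl hydrocarbon core from -200. No match was found in the SULT2A1 and UGT2B7 windows. RefSeq starts can differ from the GENCODE gene starts given below. The UGT2B7 window lies inside the GENCODE span chr4:69051363-69112987, so the bases before that span were not searched. The GSTZ1 window runs past the GENCODE start at 77320996. MGST1, which also fell, is not printed. Its window chr12:16347395-16347644 held HNF1 half-sites from -56 and -45, as reverse complements. The overlapping window chr12:16347528-16347777 held the same sites, from -189 and -178, and its window chr12:16346865-16347114 held no match.

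RefSeq windows were found for 38 of the 47 genes, 45 windows in all because some genes have several starts, and MGST2 was among those without one. The HNF1 half-site was in 11 of the 45 (24.4%), against 6.23% of 35116 windows of the same length over all genes. The NRF2 element was in 9 of 45 (20.0%, against 10.9%), the aryl hydrocarbon core in 13 (28.9%, against 32.2%), the nuclear receptor half-site in 7 (15.6%, against 12.1%), the AP-1 site in 1 (2.22%, against 6.57%) and the HNF4 site in none (against 0.325%). A match describes these letters only, and windows of paralogs share ancestry. Overlapping windows of the same gene can also count a site again, as for the HNF1 half-sites of MGST1.

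Among the sulfotransferases, both SULT2 genes fell, and none of the 6 tested SULT1 genes passed the test. SULT2B1 (ENSG00000088002.11, chr19:48552172-48599425, GRCh38), which sulfonates cholesterol and other 3-beta-hydroxysteroids, had 30, 20 and 19 counts in siPAIP1 libraries, against 187, 172 and 204 counts in Ctrl libraries. This was 0.692 ± 0.161 CPM in siPAIP1 and 5.83 ± 0.779 CPM in Ctrl (SD, n = 3 each), a log2 fold change of -3.06 ± 0.21 (SE, edgeR adjusted p = 0.000918). Every siPAIP1 library was far below every Ctrl library, and no other of the 32 genes changed as much. Its log2 fold change was -1.57 when 1 was added to each FPKM before taking logs, since its FPKM was under 1 in siPAIP1.

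SULT2A1 (ENSG00000105398.3, chr19:47870467-47886315), the hepatic and adrenal enzyme for dehydroepiandrosterone and bile acids, lies on the same chromosome. It had 113.0, 95.5 and 77.5 CPM in siPAIP1 libraries, against 197.8, 177.5 and 186.4 CPM in Ctrl libraries. The groups did not overlap, and the third siPAIP1 library was the lowest. The log2 fold change was -0.97 ± 0.13 (SE, edgeR adjusted p = 0.00629) and stayed between -1.12 and -0.85 over 14 alternative fits, with the call kept in each. Its FPKM was 44.1 ± 10.1 in siPAIP1 and 84.6 ± 4.91 in Ctrl.

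SULT1A1, the main phenol sulfotransferase, had 271.4, 266.5 and 232.9 CPM in siPAIP1 libraries, against 242.6, 203.8 and 219.3 CPM in Ctrl libraries. The third siPAIP1 library lay below the first Ctrl library, and the log2 fold change of 0.21 ± 0.096 did not pass the test (SE, edgeR adjusted p = 0.195). Without that siPAIP1 library the adjusted p was 0.0164. Its neighbour SULT1A2 had 38.5, 40.1 and 41.3 CPM in siPAIP1 libraries, against 50.4, 46.7 and 46.7 CPM in Ctrl libraries. These groups did not overlap, but the log2 fold change of -0.26 ± 0.072 missed the threshold (SE, edgeR adjusted p = 0.0575).

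The ratio of SULT1A1 to SULT1A2 counts, which does not depend on library scaling, was 7.06, 6.64 and 5.63 in siPAIP1 libraries, against 4.81, 4.36 and 4.70 in Ctrl libraries. The ratio of SULT1A1 to SULT2A1 counts was 2.40, 2.79 and 3.01 in siPAIP1 libraries, against 1.23, 1.15 and 1.18 in Ctrl libraries. Both ratios were higher in every siPAIP1 library; the pairs were chosen after their values were seen, and no test was made. Of the windows of 1 read length along the SULT1A1 and SULT1A2 transcripts, 2.73% and 0.0% recur exactly in another gene of these families. Since reads were trimmed and mapped with 4 mismatches allowed, this does not show that fragments were assigned to the right gene.

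The low SULT genes did not pass the test. SULT1C2 had 1.89 to 2.26 CPM in siPAIP1 and 2.33 to 2.79 CPM in Ctrl, without overlap (log2 fold change -0.33, edgeR adjusted p = 0.231). SULT1E1, which inactivates oestrogens, had 9 to 12 counts in siPAIP1 and 7 to 19 in Ctrl, and SULT1C4 had 22 to 35 in siPAIP1 and 33 to 39 in Ctrl. SULT1B1 had 23, 23 and 83 counts in siPAIP1 libraries, against 22, 61 and 23 counts in Ctrl libraries. As for UGT8, the high values were in the third siPAIP1 and the second Ctrl library.

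Among the UGT genes, UGT2B7 and UGT1A6 fell, and the other 8 tested did not pass. UGT2B7 (ENSG00000171234.13, chr4:69051363-69112987) glucuronidates morphine, zidovudine and many endogenous steroids. It had 25.8, 26.5 and 19.0 CPM in siPAIP1 libraries, against 51.0, 42.7 and 52.7 CPM in Ctrl libraries. The lowest Ctrl library was above all siPAIP1 libraries by a wide margin. The log2 fold change was -1.04 ± 0.15 (SE, edgeR adjusted p = 0.00667), between -1.13 and -0.90 over the 14 alternative fits.

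UGT2A3 and UGT2B10, of the same gene cluster, had smaller differences. UGT2A3 had 38.0, 35.3 and 24.2 CPM in siPAIP1 libraries, against 46.0, 40.4 and 45.6 CPM in Ctrl libraries (log2 fold change -0.44, edgeR adjusted p = 0.131). UGT2B10, which conjugates tertiary amines such as nicotine, had 22.1, 19.8 and 13.7 CPM in siPAIP1 libraries, against 26.6, 23.6 and 24.6 CPM in Ctrl libraries (log2 fold change -0.42, edgeR adjusted p = 0.145). Neither overlapped between the groups, but in both the third siPAIP1 library was well below the other two, and neither passed the test. UGT2B4 and UGT2B11 were low, with 18 to 35 and 11 to 38 counts in siPAIP1, against 15 to 23 and 14 to 17 counts in Ctrl, and overlapped. The ratio of UGT2B7 to UGT2B10 counts was 1.17, 1.34 and 1.38 in siPAIP1 libraries and 1.92, 1.81 and 2.15 in Ctrl libraries. It was lower in every siPAIP1 library, but the pair was chosen after its values were seen, and no test was made.

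The UGT1A genes lie at chromosome 2 as a row of alternative first exons joined to shared last exons. UGT1A8, UGT1A10 and UGT1A6 have 59.9%, 59.9% and 57.9% of their read-length windows in common with another UGT1A gene. No source used here says how fragments from the shared exons were assigned, and the split within the locus is uncertain. UGT1A8 was credited with 79.0% to 79.5% of the counts of the locus in siPAIP1 and 80.3% to 81.0% in Ctrl libraries. In human tissues UGT1A8 is known as an enzyme of the gut. UGT1A1, the liver enzyme that conjugates bilirubin, had 10.1 to 13.9 CPM in siPAIP1 and 11.1 to 14.5 CPM in Ctrl.

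UGT1A6 (ENSG00000167165.18, chr2:233691607-233773300), which conjugates small planar phenols, had 3.29, 3.35 and 2.02 CPM in siPAIP1 libraries, against 5.90, 5.37 and 5.94 CPM in Ctrl libraries. All siPAIP1 libraries were below all Ctrl libraries, and the log2 fold change was -0.98 ± 0.20 (SE, edgeR adjusted p = 0.0216). The call was lost without any 1 of the Ctrl libraries, with adjusted p of 0.0649 to 0.0986. UGT1A8 had 118.7, 116.3 and 92.6 CPM in siPAIP1 libraries, against 132.6, 119.4 and 141.0 CPM in Ctrl libraries, a log2 fold change of -0.26 ± 0.11 that did not pass the test (SE, edgeR adjusted p = 0.181). UGT1A1, UGT1A3 and UGT1A10 had log2 fold changes of -0.02, 0.03 and 0.08, and overlapped.

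Among the soluble GST genes, GSTZ1 rose. GSTZ1 (ENSG00000100577.18, chr14:77320996-77331597) is maleylacetoacetate isomerase, an enzyme of tyrosine breakdown that also metabolizes dichloroacetate. It had 34.0, 34.7 and 31.4 CPM in siPAIP1 libraries, against 25.4, 21.8 and 25.0 CPM in Ctrl libraries. The groups were clearly apart, and the third siPAIP1 library was again the lowest of its group. The log2 fold change was 0.47 ± 0.089 (SE, edgeR adjusted p = 0.0174). The call was lost without any 1 library other than the third siPAIP1 library, with adjusted p of up to 0.0745.

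GSTA1, the main alpha-class enzyme of liver, had 13.1, 9.04 and 6.64 CPM in siPAIP1 libraries, against 17.1, 14.6 and 13.7 CPM in Ctrl libraries. The groups did not overlap, but the siPAIP1 libraries were spread over a range as wide as the difference between the group means, and the log2 fold change of -0.65 ± 0.23 did not pass the test (SE, edgeR adjusted p = 0.111). GSTA4, which clears the lipid peroxidation product 4-hydroxynonenal, had 21.1, 18.6 and 15.3 CPM in siPAIP1 libraries, against 17.8, 16.7 and 16.5 CPM in Ctrl libraries (log2 fold change 0.11, edgeR adjusted p = 0.586). It overlapped between the groups, and its sign turned, to -0.011, without the first siPAIP1 library. The ratio of GSTA1 to GSTA4 counts was 0.621, 0.486 and 0.434 in siPAIP1 libraries and 0.961, 0.874 and 0.827 in Ctrl libraries. It was lower in every siPAIP1 library, but this pair too was chosen after its values were seen, and no test was made.

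Other soluble GST genes did not pass the test. GSTM4 had 35.7, 32.7 and 28.9 CPM in siPAIP1 libraries, against 44.8, 36.7 and 46.0 CPM in Ctrl libraries, without overlap (log2 fold change -0.39, edgeR adjusted p = 0.0739). GSTM3 had 38.2 to 46.3 CPM in siPAIP1 and 32.4 to 40.5 CPM in Ctrl, and overlapped. GSTO1 had 409.0, 397.8 and 339.8 CPM in siPAIP1 libraries, against 477.9, 379.6 and 454.6 CPM in Ctrl libraries (log2 fold change -0.19, edgeR adjusted p = 0.295). The second Ctrl library lay among the siPAIP1 values. GSTK1, a mitochondrial and peroxisomal enzyme, had 85.8 to 91.5 CPM in siPAIP1 and 87.1 to 102.1 CPM in Ctrl (log2 fold change -0.09, edgeR adjusted p = 0.481). The low GSTO2 had 2.59 to 2.86 CPM in siPAIP1 and 3.11 to 3.67 CPM in Ctrl, without overlap (log2 fold change -0.31, edgeR adjusted p = 0.189). GSTA2, GSTM2 and GSTT2B overlapped between the groups, and 68.5% of the read-length windows of GSTT2B recur in its copy GSTT2.

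The membrane-bound enzymes MGST1 and MGST2 fell, and MGST3 did not. MGST1 (ENSG00000008394.12, chr12:16347142-16609259), a glutathione transferase and peroxidase of the endoplasmic reticulum and mitochondria, had 243.7, 230.6 and 192.7 CPM in siPAIP1 libraries, against 324.3, 267.2 and 319.7 CPM in Ctrl libraries. MGST2 (ENSG00000085871.8, chr4:139665768-139740745), which can make leukotriene C4, had 162.3, 156.9 and 137.0 CPM in siPAIP1 libraries, against 217.1, 182.6 and 207.7 CPM in Ctrl libraries. Both were lower in all siPAIP1 libraries, by the smallest margin against the second Ctrl library. The log2 fold changes were -0.45 ± 0.12 for MGST1 (edgeR adjusted p = 0.0477) and -0.41 ± 0.098 for MGST2 (edgeR adjusted p = 0.0375; SE).

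The calls of MGST1 and MGST2 were close to the threshold, and each was lost in 9 of 14 alternative fits, among them those without any 1 library other than the third siPAIP1 library. MGST3, which has glutathione peroxidase activity, had 55.6, 54.3 and 52.8 CPM in siPAIP1 libraries, against 52.9, 42.9 and 50.7 CPM in Ctrl libraries (log2 fold change 0.15, edgeR adjusted p = 0.315). The ratio of MGST1 to MGST3 counts was 4.38, 4.24 and 3.65 in siPAIP1 libraries, against 6.12, 6.23 and 6.31 in Ctrl libraries. The ratio of MGST2 to MGST3 counts was 2.92, 2.89 and 2.60 in siPAIP1 libraries, against 4.10, 4.26 and 4.10 in Ctrl libraries. Within each library, both were lower relative to MGST3 in siPAIP1, and the Ctrl ratios varied little, including that of the second library; these ratios were also chosen after the values were seen.

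**Figure D3:**
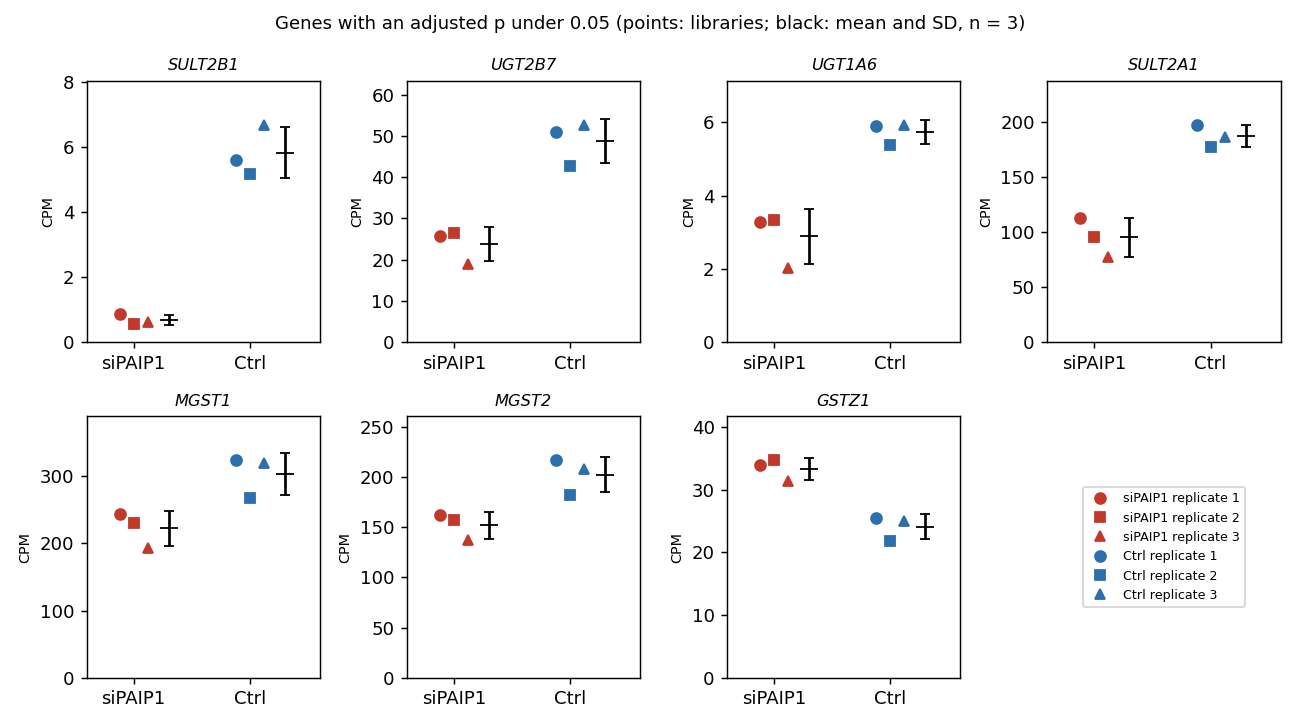
CPM of the 7 genes with an adjusted p under 0.05 in each library, 1 panel per gene with its own axis from 0; siPAIP1 libraries stand left of Ctrl libraries, and the black bars are mean and SD (n = 3). In all 7 panels the siPAIP1 and Ctrl points do not overlap, with GSTZ1 at 31.4 to 34.7 CPM in siPAIP1 and 21.8 to 25.4 CPM in Ctrl as the sole one that is higher.

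CPM was also summed over groups of paralogs, since counts can be split where genes share sequence. SULT2A1, SULT2B1, MGST1, MGST2, MGST3, UGT2B7, UGT2A3 and UGT2B10 had 0.0% of their read-length windows in another gene of these families. The SULT2, MGST and UGT2 sums, made up mostly of these genes, therefore restate the single genes. The UGT2 sum was 88.5, 83.2 and 58.2 CPM in siPAIP1 libraries, against 125.1, 108.2 and 124.9 CPM in Ctrl libraries. The SULT2 sum was 113.8, 96.1 and 78.1 CPM in siPAIP1 libraries, against 203.4, 182.7 and 193.1 CPM in Ctrl libraries. The MGST sum was 461.6, 441.9 and 382.5 CPM in siPAIP1 libraries, against 594.3, 492.6 and 578.0 CPM in Ctrl libraries. For these 3 groups every siPAIP1 library was below every Ctrl library, and no test was made of the sums.

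The sums of the UGT1A, SULT1A, GSTA, GSTM and GSTO genes overlapped between the groups. For the whole UGT1A locus, where the split between genes is uncertain, the sum was 149.4, 146.9 and 117.2 CPM in siPAIP1 libraries, against 163.6, 147.5 and 175.5 CPM in Ctrl libraries. The SULT1A sum was 309.9, 306.7 and 274.4 CPM in siPAIP1 libraries, against 293.0, 250.6 and 266.1 CPM in Ctrl libraries. Over all 47 genes the sum was 1665 ± 167 CPM in siPAIP1 and 1992 ± 175 CPM in Ctrl (SD, n = 3 each), with the second Ctrl library, at 1793 CPM, between the first and the second siPAIP1 library.

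**Figure D4:**
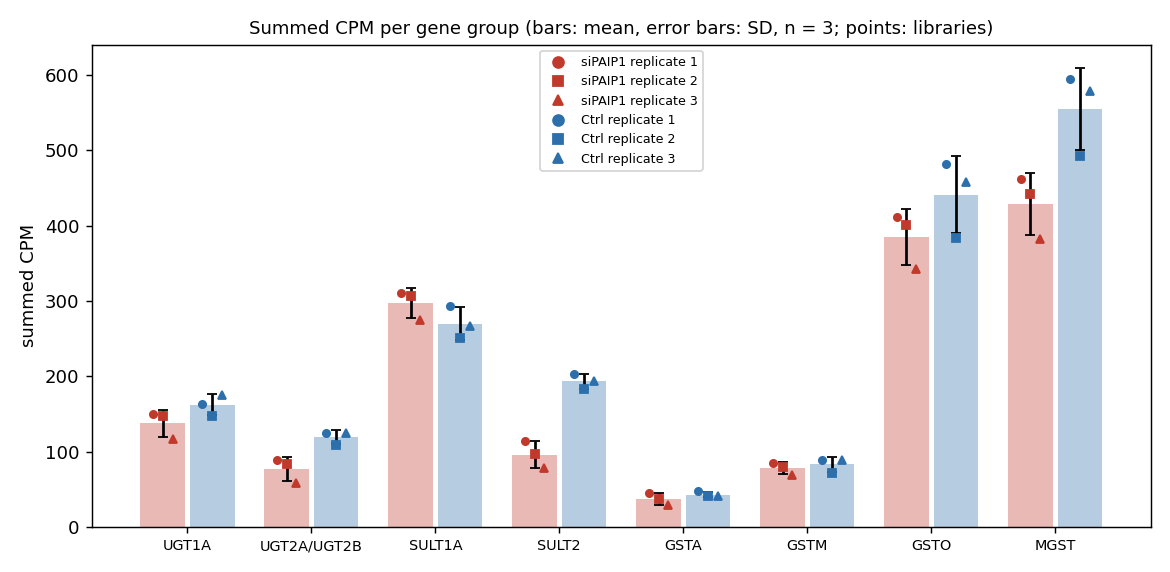
Summed CPM of 8 groups of related genes, with siPAIP1 (red) left of Ctrl (blue) in each pair; bars are means, error bars SD (n = 3) and points single libraries. The siPAIP1 points are all below the Ctrl points for UGT2A/UGT2B, SULT2 and MGST, and overlap with them in the other 5 pairs.

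The genes around conjugation were described by a list of 53, of which 45 were tested, and 3 of these rose and 11 fell, against 5.68% and 6.2% of all tested genes. Of the 15 tested genes of cosubstrate supply, 5 fell and none rose. UGDH, which makes UDP-glucuronate, had 319.6, 295.7 and 315.4 CPM in siPAIP1 libraries, against 392.6, 385.2 and 414.1 CPM in Ctrl libraries (log2 fold change -0.36 ± 0.071, edgeR adjusted p = 0.0208), and SLC35D1, which carries it into the endoplasmic reticulum, fell by 0.31 on the log2 scale (edgeR adjusted p = 0.0436). PAPSS1, which makes the sulfonate donor PAPS, had 40.2 to 49.1 CPM in siPAIP1 and 51.2 to 52.9 CPM in Ctrl (edgeR adjusted p = 0.231), and PAPSS2 was at most 0.328 CPM in any library and was not tested.

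Of glutathione supply, GCLC, the catalytic subunit of the rate-limiting enzyme, had 46.8, 48.0 and 43.9 CPM in siPAIP1 libraries, against 61.5, 60.0 and 63.6 CPM in Ctrl libraries (log2 fold change -0.42 ± 0.070, edgeR adjusted p = 0.012). The groups were well apart, with little spread in either. The cystine transporter SLC7A11 fell by 0.45 and glutathione reductase, GSR, by 0.42 on the log2 scale (edgeR adjusted p = 0.0133 and 0.0159), while the modifier subunit GCLM had 25.8 to 34.2 CPM in siPAIP1 and 35.6 to 43.9 CPM in Ctrl and did not pass the test (edgeR adjusted p = 0.102). The calls of these cosubstrate genes were less stable than those of SULT2A1 and UGT2B7, being lost in 5 of 14 alternative fits for GCLC and GSR, 7 for SLC7A11, 8 for UGDH and 11 for SLC35D1.

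Of the 6 export pumps, ABCC4 and ABCG2 fell, by 0.50 and 0.39 on the log2 scale (edgeR adjusted p = 0.0142 and 0.0328). These calls were lost in 5 and 9 of 14 alternative fits. Over all tested genes 5.68% rose and 6.2% fell, the shares to set beside this and the next 2 lists. ABCC2, the pump for glucuronide and glutathione conjugates at the bile canaliculus, had 220.7 to 278.0 CPM in siPAIP1 and 260.5 to 292.8 CPM in Ctrl and overlapped (edgeR adjusted p = 0.239). Of the 6 tested genes that remove or process conjugates, the sulfatase ARSA rose by 0.35 ± 0.069 and NAT8, which completes mercapturic acids, fell by 0.78 ± 0.16 on the log2 scale (SE, edgeR adjusted p = 0.019 and 0.0241). The ARSA call was lost in 6 and the NAT8 call in 5 of 14 alternative fits. GUSB, which splits glucuronides, had 49.2 to 49.6 CPM in siPAIP1 and 44.3 to 48.4 CPM in Ctrl (edgeR adjusted p = 0.322). Of 4 tested conjugating enzymes of other families, BAAT, which joins bile acids to glycine or taurine, fell to 2.04, 2.12 and 2.06 CPM in siPAIP1 libraries, against 7.43, 8.23 and 7.68 CPM in Ctrl libraries (log2 fold change -1.91 ± 0.11, edgeR adjusted p = 0.00085). Its call was kept in all 14 alternative fits.

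Of the 14 tested transcription factors known to act on phase II genes, 2 rose and 2 fell, against 5.68% and 6.2% of all tested genes. NFE2L2, which encodes NRF2, had 158.0, 149.9 and 122.4 CPM in siPAIP1 libraries, against 227.9, 212.9 and 230.1 CPM in Ctrl libraries. All siPAIP1 libraries were below all Ctrl libraries, with a log2 fold change of -0.64 ± 0.11 (SE, edgeR adjusted p = 0.0109). The bile acid receptor gene NR1H4 had 19.9, 15.4 and 12.3 CPM in siPAIP1 libraries, against 30.3, 27.2 and 26.4 CPM in Ctrl libraries (log2 fold change -0.82 ± 0.17, edgeR adjusted p = 0.0222). AHR, the aryl hydrocarbon receptor, had 41.3, 43.0 and 43.7 CPM in siPAIP1 libraries, against 33.0, 34.2 and 35.8 CPM in Ctrl libraries (log2 fold change 0.31 ± 0.071, edgeR adjusted p = 0.0317). The call was lost in 9 of 14 alternative fits for AHR, 4 for NR1H4 and 2 for NFE2L2. The glucocorticoid receptor gene NR3C1 rose by 0.34 on the log2 scale (edgeR adjusted p = 0.0456), a call kept in 2 of 14 alternative fits, whereas the xenobiotic receptor gene NR1I2 had 10.5 to 14.2 CPM in siPAIP1 and 11.3 to 12.1 CPM in Ctrl (edgeR adjusted p = 0.773). Over the 45 genes the median log2 fold change was -0.0598, against 0.0342 over all tested genes.

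**Figure D5:**
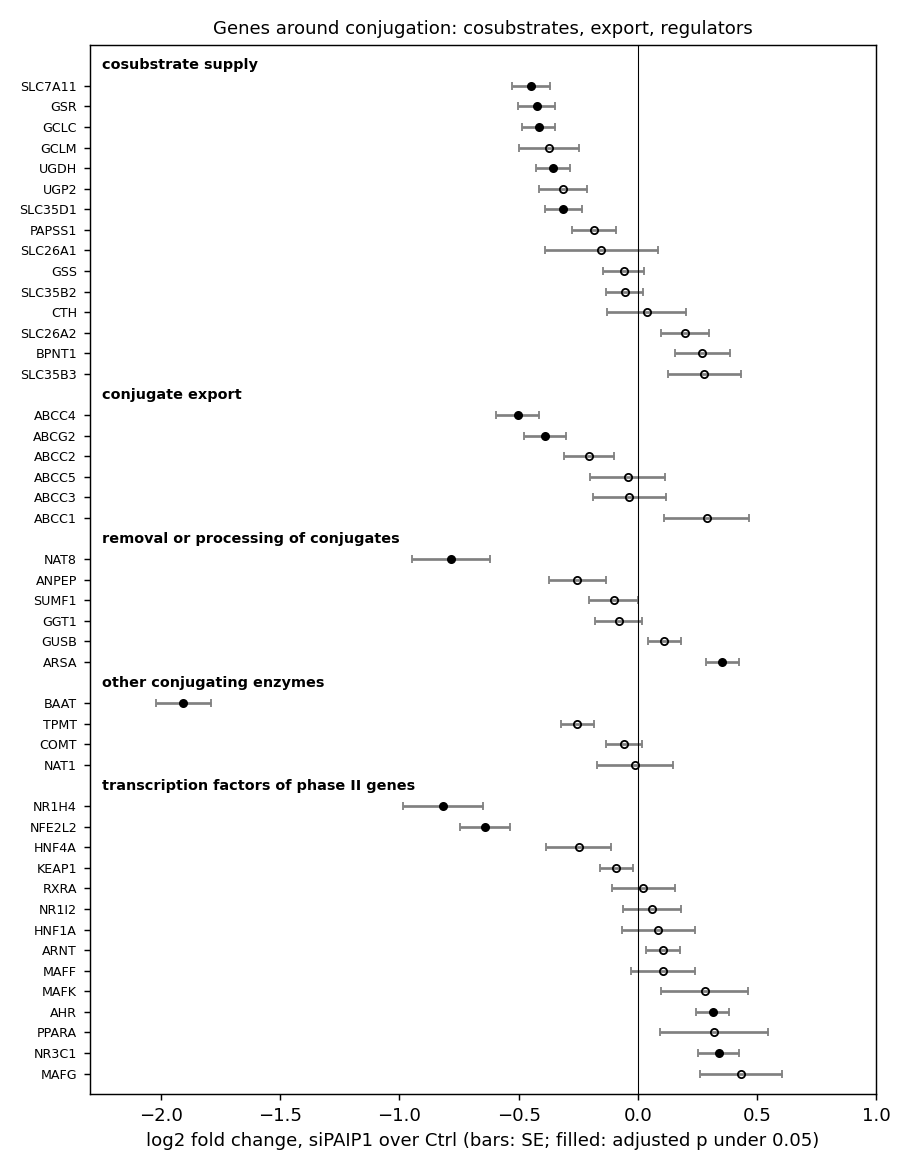
Log2 fold change (siPAIP1 over Ctrl) with SE of the 45 tested genes around conjugation, grouped by role; filled points have an adjusted p under 0.05. BAAT, at -1.91, lies farthest from 0, and the filled points among cosubstrate supply and export genes are all left of 0.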

How the data were processed

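HepG2 RNA-seq libraries (siPAIP1 n = 3, Ctrl n = 3) were grouped by their labels, and the replicate libraries were treated as separate samples. The authors discarded reads with more than 2 ambiguous bases, trimmed adaptors and low-quality bases with FASTX-Toolkit 0.0.13, mapped read pairs on GRCh38 using TopHat2 with 4 mismatches allowed, and kept those mapping to 1 place. The values deposited by the authors are raw counts per gene and FPKM. The counting tool, its annotation and whether it used strand are stated in no source used here. How reads of overlapping genes were assigned is therefore unknown. Reads that match near-identical genes equally well map to more than 1 place, so their counts may be too low.

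Counts as deposited were tested in R 4.3.3 with edgeR 4.0.16: filterByExpr, TMM factors, glmQLFit and glmQLFTest with group as the only term, and Benjamini-Hochberg adjustment over 15528 genes. Genes were called at an adjusted p under 0.05. CPM used TMM library sizes. The SE of a log2 fold change was its absolute value divided by the square root of the test's F statistic. The fit was tested on simulated counts with known changes. Alternatives were RLE or upper-quartile factors, other filters on low counts, DESeq2 1.42.0, limma 3.58.1 on log2(FPKM + 0.1) or log2(FPKM + 1), a replicate block, and leaving out each library. Leaving out the third siPAIP1 and second Ctrl libraries together was added after seeing the data.

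Gene coordinates came from GENCODE (GRCh38) and promoters from RefSeq (GRCh38.p14). The members, the gene lists and the alternatives were chosen with earlier results of these data known. Members described in full were those with an adjusted p under 0.05 and the 12 with the highest mean FPKM, and others appear by range or within their own subfamily. Of the genes around conjugation, those with an adjusted p under 0.05 and the best-known gene of each list were named. P-values measure the spread between these libraries.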

Additional observations from a re-analysis of the deposited data

How the results depend on the processing

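SULT2B1, SULT2A1, UGT2B7 and PAIP1 were called in all 14 alternative fits. With 6 libraries 1 of 32 tested members was higher and 6 were lower (5.68% and 6.2% of all tested genes). The number lower was 4 of 32 with upper-quartile factors (5.2% of all tested genes). It was also 4 with limma on log2(FPKM + 0.1) or log2(FPKM + 1) (3.91% and 3.79%), each time without MGST1 and MGST2. Without the filter on low counts 9 of 47 were lower (3.25%). DESeq2 gave 8 of 32 (6.75%) and RLE factors 7 of 32 (6.36%). In each of these fits 1 member was higher, against 3.85% to 5.95% of all tested genes. The replicate block left 0 higher and 3 lower (2.36% and 2.96% of all tested genes), and UGT1A6, GSTZ1, MGST1 and MGST2 were not called. Whether the replicate numbers pair the libraries could not be decided. Correlations of deviations from the group means were 0.26, -0.277 and -0.152 for same-numbered libraries. The highest was 0.386, between the third siPAIP1 and the second Ctrl library, and not every library correlated best with its own number. Deviations from a mean of 3 libraries are not independent, so these correlations cannot exclude pairing. Leaving out 1 library gave 0 to 4 higher and 3 to 11 lower members, where the shares of all tested genes ranged from 1.17% to 11.8% higher and from 1.68% to 12.4% lower. Of these members, 0 to 1 were higher and 1 to 4 lower by at least 2-fold. The shares of all genes at 2-fold were not counted for the alternative fits. With log2(FPKM + 1), 1 was lower by at least 2-fold, and the log2 fold changes of SULT2B1 and UGT1A6 were -1.57 and -0.54. Without the third siPAIP1 and second Ctrl libraries together, 3 members were higher and 13 lower (1 of each by at least 2-fold), against 15.3% and 16.5% of all genes; all 7 calls were among them.

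For the genes around conjugation, 3 higher and 11 lower became 1 and 5 with either limma fit (4.89% to 5.16% and 3.79% to 3.91% of all tested genes). The replicate block gave 0 and 5 (2.36% and 2.96%). Leaving out 1 library gave 0 to 4 and 1 to 20, while the shares of all genes ranged from 1.17% to 11.8% and from 1.68% to 12.4%. Without both libraries 6 and 21 were called (15.3% and 16.5%). DESeq2, RLE and upper-quartile factors gave 2 higher, against 5.06% to 5.95% of all tested genes. No filter also gave 2 higher, and 10 lower (3.85% and 3.25%). GSTA4 ranged from -0.011, without the first siPAIP1 library, to 0.22 when 1 library was left out. SULT1A2 was called with RLE factors (edgeR adjusted p = 0.0497). With 1 library left out, the log2 ratio of summed CPM ranged from -0.37 to -0.071 for GSTA, -0.19 to -0.014 for GSTM and -0.30 to -0.13 for UGT1A genes, and from -1.15 to -0.88 for SULT2 genes. The causes of these shifts were not tested. Without the filter, the 15 members with few counts were tested as well, and none of them was called.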
